A study of Homo sapiens with 6 samples.

Results

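Chromosome 19 carries the densest set of zinc finger genes in the human genome, and 246 of the 58656 gene rows measured belong to it under the rule used here. The members are the protein-coding rows of that chromosome whose symbol is ZNF, a number and at most 1 further letter. Symbol, chromosome and gene type chose them, and no expression value enters the rule. Genes named ZFP, ZSCAN or ZIM are therefore not among them. The rule was set with earlier results of these data known. The cells were MDA-MB-231, a single established human line of triple-negative breast cancer, a tumour type without estrogen receptor, progesterone receptor or HER2 amplification. One group was given mitocurcumin, a derivative of the plant polyphenol curcumin targeted to mitochondria, at 5 µM for 9 hours. The other received only DMSO, over 9 hours as well. Both groups consisted of 3 polyadenylated RNA libraries, and the comparison asks how the compound changed the level of each gene. Replicates are labelled biological, but separate cultures are not mentioned, and p-values thus reflect how far these 6 libraries scatter.

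Most of these genes encode proteins with a row of C2H2 zinc fingers, each of which holds a zinc ion and contacts a few bases of DNA. Many also carry a KRAB domain at the amino end, which binds the corepressor TRIM28 (KAP1). TRIM28 in turn brings the histone H3 lysine 9 methyltransferase SETDB1, heterochromatin proteins and DNA methylation to the bound site. The known targets of many KRAB zinc finger proteins are transposable elements. The genes lie in clusters that grew by tandem duplication, so neighbours often resemble each other in sequence. The genes beside the centromere, among them ZNF91, ZNF43 and ZNF85, expanded in primates.

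Total counts ran from 23146822 to 29104681 per library, and the biological coefficient of variation over all tested genes was 8.43%. Markers of the line were high in every library, with VIM at 2313 to 2380 CPM (counts per 1e6 counts of a library, scaled by TMM factors) after mitocurcumin and 2150 to 2189 CPM in controls. ESR1 and PGR stayed at or below 0.348 CPM. ERBB2, the HER2 gene, was detected, at 30.3 to 35.5 CPM after mitocurcumin and 37.2 to 48.6 CPM in controls. Of the epithelial genes, CDH1 was at 1.62 to 3.15 CPM after mitocurcumin and 1.19 to 2.20 CPM in controls. EPCAM was at 18.8 to 20.8 CPM after mitocurcumin and 21.0 to 24.3 CPM in controls. KRT18 was at 152 to 167 CPM after mitocurcumin and 151 to 181 CPM in controls. Of the other cell types checked, CD3E and ALB were at or below 0.171 CPM, and PTPRC was between 0.64 and 1.44 CPM. PECAM1, an endothelial adhesion gene also made by some tumour lines, was at 6.06 to 6.78 CPM after mitocurcumin and 11.5 to 14.96 CPM in controls, and the collagen gene COL1A1 was at 8.14 to 10.1 CPM after mitocurcumin and 8.47 to 8.60 CPM in controls. The part of the PECAM1 difference in the results was not tested.

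Of the 246 genes, 237 had enough counts to be tested. The remaining 9 averaged between 0.0071 and 0.375 CPM and were not tested, namely ZNF560, ZNF676, ZNF729, ZNF98, ZNF728, ZNF536, ZNF229, ZNF541 and ZNF135. At an edgeR adjusted p under 0.05, 55 of the 237 were higher after mitocurcumin, or 23.2%, and 21 were lower, or 8.86%. Over all 16481 genes tested, 14.7% were higher and 17.8% lower, and 32.5% in either direction, so the members' share higher was above this background and their share lower below it. The median log2 fold change of the 237 was 0.11, beside -0.01 for all genes tested, and 157 of the 237 had a positive value. The changes were small. Of the 237, 17 differed by at least 1.5-fold in either direction and 2 by at least 2-fold, ZNF419 upwards and ZNF681 downwards. The 3 mitocurcumin libraries lay above all 3 control libraries for 81 of the genes, or below them for 27, and the same held for 21.2% and 23.7% of all genes tested, or 44.9% in either direction.

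Summed over the 246 genes, the level was 5464, 5341 and 5358 CPM in the mitocurcumin libraries, against 4827, 5165 and 5208 CPM in the control libraries. The groups do not overlap, and control replicate 1 is the lowest of the 6. The mean sum was 6.34% higher after mitocurcumin.

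The direction of change differed along the chromosome. When the genes were ordered by start and split wherever neighbouring starts were more than 1 Mb apart, 9 clusters held at least 5 tested members. In 7 of the 9 the median log2 fold change was positive, between 0.12 and 0.30. One of the exceptions was the small group of 5 genes from ZNF302 to ZNF792 (34.7 to 35.0 Mb, GRCh38), with a median of -0.26, 1 gene higher and 0 lower. The other was the cluster next to the centromere on the short arm, from ZNF101 to ZNF254 (19.7 to 24.1 Mb), where the median was -0.15. The 11 members outside the 9 clusters lay singly or in groups of up to 3, and of the 9 tested among them 2 were higher, ZNF780B and ZNF473, and 1 was lower, ZNF114.

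The pericentromeric cluster held 37 of the genes, 33 of them tested. After mitocurcumin 13 of the 33 were lower, or 39.4%, and 1 was higher, ZNF14. In the remainder of the chromosome 8 of 204 tested members were lower, or 3.92%, and 54 were higher, or 26.5%, with a median log2 fold change of 0.15. The count of lower members elsewhere was 5 without control replicate 3 and 4 without mitocurcumin replicate 3. The median of the pericentromeric cluster was -0.23 without control replicate 1, and its count of lower members ranged from 11 to 16 as each library was left out. Summed CPM showed the same split library by library. The pericentromeric genes summed to 651, 666 and 657 CPM in the mitocurcumin libraries, against 749.98, 822 and 855 CPM in the control libraries. The other genes summed to 4813, 4675 and 4701 CPM in the mitocurcumin libraries, against 4077, 4343 and 4353 CPM in the control libraries. Neither pair of ranges overlaps, with means 18.6% lower after mitocurcumin in the pericentromeric cluster and 11.1% higher elsewhere. No test of the difference between clusters was made, since neighbouring genes are not independent replicates.

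**Figure D1:**
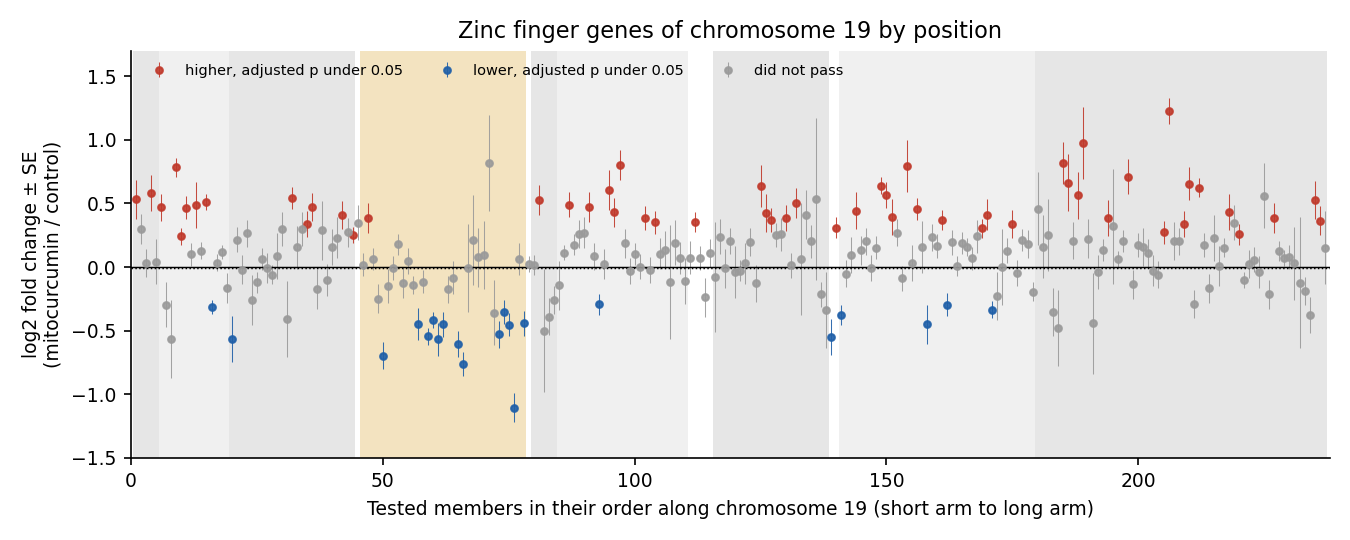
Log2 fold change (mitocurcumin over control, vertical axis) of the 237 tested genes in their order along chromosome 19 (horizontal axis), with bars of 1 SE, a solid line at 0 and a dotted line at the median of all genes tested. Red genes were higher, blue lower and grey did not pass, and shaded blocks are the 9 clusters, of which the yellow one is the pericentromeric cluster with 13 genes lower and 1 higher.

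**Figure D2:**
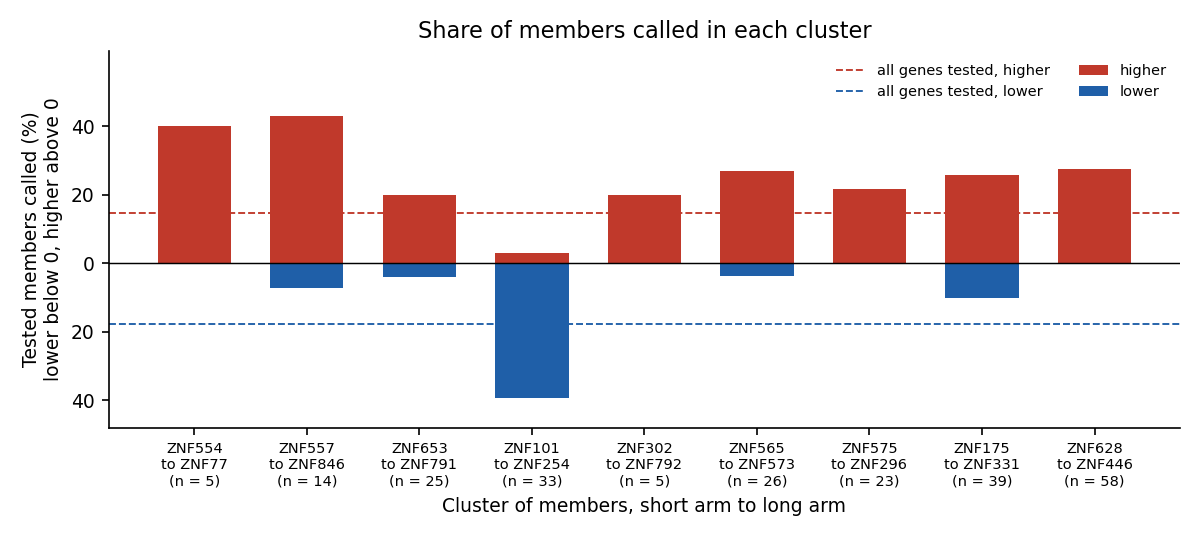
Share of tested members called higher (bars above 0) and lower (bars below 0), in percent on the vertical axis, in each of the 9 clusters with at least 5 tested members, in chromosome order. Dashed lines give the shares over all genes tested, 14.7% higher and 17.8% lower, and the pericentromeric cluster has the longest bar for lower genes, 39.4%.

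The largest fall was in ZNF681 (chr19:23739195-23758891, minus strand), which had 7.60, 8.31 and 8.66 CPM in the mitocurcumin libraries, against 17.7, 16.5 and 18.7 CPM in the control libraries. Every mitocurcumin library lies below every control library, and the log2 fold change was -1.10 ± 0.12 (adjusted p = 1.7e-06), here and below ± SE and adjusted over all genes tested. ZNF681 overlaps RPSA2 on the opposite strand, and RPSA2 did not pass (log2 fold change -0.07, adjusted p = 0.627). ZNF43, with 19 finger matches, had 21.3, 22.3 and 22.8 CPM in the mitocurcumin libraries, against 33.3, 38.2 and 41.1 CPM in the control libraries. Its log2 fold change was -0.76 ± 0.09 (adjusted p = 1.0e-05). ZNF93, whose protein is known to silence LINE-1 retrotransposons, had 19.04, 20.4 and 22.4 CPM in the mitocurcumin libraries, against 28.9, 34.1 and 37.3 CPM in the control libraries. The lowest control library of ZNF93 was above its highest mitocurcumin library, and the log2 fold change was -0.70 ± 0.11 (adjusted p = 8.5e-05).

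ZNF100 was at 23.3, 24 and 23.2 CPM after mitocurcumin and 30.5, 37.1 and 39.8 CPM in controls, with a log2 fold change of -0.61 ± 0.10 (adjusted p = 1.9e-04). ZNF708 was at 12.9, 11.9 and 10.9 CPM after mitocurcumin and 14.2, 18.8 and 20.1 CPM in controls, and control replicate 1 lies closest to the treated libraries, with a log2 fold change of -0.57 ± 0.13 (adjusted p = 0.0030). For ZNF714, one of the more abundant genes of the cluster, the levels were 50.3, 53.8 and 48.4 CPM after mitocurcumin and 73.3, 71.2 and 77.9 CPM in controls, and the log2 fold change -0.55 ± 0.07 (adjusted p = 1.2e-05). In each of these genes the groups are separate. ZNF675, also known as TIZ, an inhibitor of TRAF6 signalling, was at 20.7, 20.9 and 20.99 CPM after mitocurcumin and 27.5, 28.7 and 29.6 CPM in controls, a log2 fold change of -0.45 ± 0.09 (adjusted p = 8.0e-04). ZNF91, the repressor of SVA retrotransposons, was at 34.4, 36.95 and 38 CPM after mitocurcumin and 39.03, 48.95 and 51.7 CPM in controls. Its fall was among the smallest of the cluster, -0.35 ± 0.10 (adjusted p = 0.0099), and its mitocurcumin libraries lie just under control replicate 1. ZNF91 lost its call when control replicate 3 was left out (adjusted p = 0.084) or when mitocurcumin replicate 1 was (adjusted p = 0.068), with 9.6e-06 to 0.084 over all alternatives.

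The other 5 lower genes of the cluster were ZNF724, ZNF738, ZNF85, ZNF254 and ZNF431, with log2 fold changes of -0.53 to -0.42, and in each of them the groups are separate. ZNF431 had 52.9, 54.7 and 52.2 CPM in the mitocurcumin libraries, against 69.9, 71.5 and 72.4 CPM in the control libraries, the highest levels among these 5. ZNF738, whose translated transcript has 0 finger matches, was at 19.8, 20.4 and 19.1 CPM after mitocurcumin and 27.3, 29.04 and 24.6 CPM in controls. The call of ZNF85 did not hold when control replicate 3 or mitocurcumin replicate 2 was left out. In ZNF724, 55.9% of the 50-base words of its transcripts also occur in other genes, so reads could be shared between it and a near-identical copy. For the 13 lower genes the median of that share was 4.75%, ranging from 0.17% to 55.9%. The 1 higher gene, ZNF14 near the telomeric edge of the cluster, had 12.4, 11.7 and 11.7 CPM in the mitocurcumin libraries, against 8.94, 9.36 and 9.09 CPM in the control libraries. Its log2 fold change was 0.38 ± 0.12 (adjusted p = 0.018), and the call was lost without mitocurcumin replicate 1. The 19 tested genes that did not pass included well-expressed neighbours, such as ZNF66 at 60.2 ± 3.70 CPM after mitocurcumin and 66.5 ± 4.14 CPM in controls (SD, n = 3 each) with a log2 fold change of -0.14, and ZNF90 at 23.6 ± 1.09 CPM after mitocurcumin and 23.7 ± 1.40 CPM in controls with -0.01. As a group, though, the 20 tested genes not called lower, ZNF14 among them, had lower levels. Their median was 13.2 CPM (0.852 to 63.4), against 24.7 CPM (12.9 to 62.5) for the 13 lower genes.

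**Figure D3:**
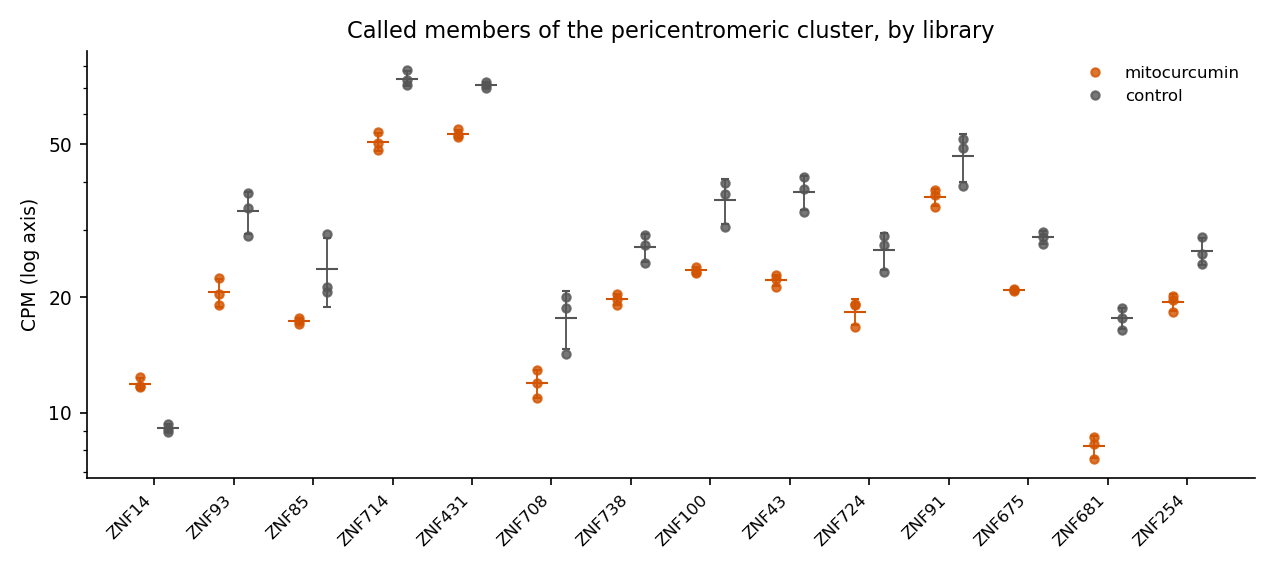
CPM (log axis) of the 14 called genes of the pericentromeric cluster in each library, in chromosome order, with mean and SD of 3 libraries per group. The mitocurcumin points lie below the control points in 13 genes and above them in ZNF14.

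Few other transcripts of that stretch could be set beside them. RPSA2 was its only other protein-coding gene tested. Of 7 noncoding RNAs and pseudogenes tested there, 2 were lower and 0 higher, beside 17.8% and 14.7% of all genes tested. LINC01224, which lies next to ZNF91, averaged 12.5 CPM after mitocurcumin and 20.97 CPM in controls (log2 fold change -0.74, adjusted p = 3.7e-05). The importin pseudogene IPO5P1 averaged 9.11 CPM after mitocurcumin and 11.9 CPM in controls (log2 fold change -0.38, adjusted p = 0.027). The rest did not pass and went both ways. Their log2 fold changes were -0.76 in LINC00664, -0.34 in ZNF826P, 0.11 in LOC105372319, 0.18 in LOC400682 and 0.46 in LINC00663.

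The promoters of the pericentromeric genes share sequence. They are shown here because words recur in them, in genes that fell and in neighbours that did not pass. The 2 words marked below are among these. RefSeq promoters (GRCh38.p14, 250 bases before to 50 after a start, the first start listed for each gene) were matched for 216 of the 246 genes, 29 of them in the cluster. TCCAATCAGG, which contains the CCAAT box bound by NF-Y, and CTGTCACTC are in capitals in the promoters printed here, each 5′ to 3′. These words were picked from the pericentromeric promoters, so their frequency there is a description.
ZNF681: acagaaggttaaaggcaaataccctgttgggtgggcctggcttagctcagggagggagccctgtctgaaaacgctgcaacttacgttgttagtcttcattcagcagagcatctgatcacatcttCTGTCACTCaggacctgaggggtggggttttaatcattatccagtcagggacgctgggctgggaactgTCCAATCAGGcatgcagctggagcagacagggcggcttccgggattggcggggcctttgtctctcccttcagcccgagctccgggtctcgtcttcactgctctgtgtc
ZNF43: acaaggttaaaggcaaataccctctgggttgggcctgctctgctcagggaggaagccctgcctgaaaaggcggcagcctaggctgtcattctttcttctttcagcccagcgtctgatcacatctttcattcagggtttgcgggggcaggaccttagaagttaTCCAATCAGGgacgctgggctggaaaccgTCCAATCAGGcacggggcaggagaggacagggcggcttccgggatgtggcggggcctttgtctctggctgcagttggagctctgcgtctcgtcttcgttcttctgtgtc
ZNF93: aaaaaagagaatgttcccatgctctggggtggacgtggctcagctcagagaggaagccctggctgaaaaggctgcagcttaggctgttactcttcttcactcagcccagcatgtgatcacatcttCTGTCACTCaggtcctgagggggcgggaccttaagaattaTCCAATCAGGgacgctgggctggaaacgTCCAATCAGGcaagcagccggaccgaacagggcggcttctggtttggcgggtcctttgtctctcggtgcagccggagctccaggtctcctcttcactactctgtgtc
ZNF14: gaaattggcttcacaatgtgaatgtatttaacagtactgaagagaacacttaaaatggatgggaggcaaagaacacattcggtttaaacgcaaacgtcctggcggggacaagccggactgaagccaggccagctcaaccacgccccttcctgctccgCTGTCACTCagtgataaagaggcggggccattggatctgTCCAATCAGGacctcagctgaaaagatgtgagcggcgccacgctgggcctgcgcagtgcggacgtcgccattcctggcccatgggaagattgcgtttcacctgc
ZNF419: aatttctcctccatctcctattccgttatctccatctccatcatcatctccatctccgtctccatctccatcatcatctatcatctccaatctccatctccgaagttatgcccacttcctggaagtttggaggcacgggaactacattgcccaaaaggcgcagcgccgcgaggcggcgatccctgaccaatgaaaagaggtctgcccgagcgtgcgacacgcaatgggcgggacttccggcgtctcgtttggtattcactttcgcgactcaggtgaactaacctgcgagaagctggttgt
The first 3 belong to the genes with the largest falls in the cluster and lie at chr19:23758842-23759141 (minus strand), chr19:21836133-21836432 (minus strand) and chr19:19900696-19900995 (plus strand). ZNF681 and ZNF93 have both words, and ZNF43 has TCCAATCAGG alone. ZNF14, the higher gene of the cluster, has both words (chr19:19733063-19733362, minus strand). ZNF419, the member with the largest rise, has neither (chr19:57487500-57487799, plus strand).

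Counted on both strands, TCCAATCAGG was in 26 of 29 pericentromeric promoters, in 17 of the 187 other members' promoters and in 0.493% of 15823 protein-coding promoters. CTGTCACTC was in 26 of 29, in 11 of 187 and in 0.853%. The shorter TCCAATCA occurred in all 29 cluster promoters. Its most upstream copy started 88 to 30 bases before the listed start, at a median of 82. Some promoters, such as those of ZNF43 and ZNF93, hold a further copy downstream that these positions leave out. The bare CCAAT, which the longer word includes, was in all 29, in 46.5% of the other members' promoters and in 36.4% of all. The ETS word CCGGAAGT was in 0 of 29, in 24.1% and in 6.19%. A further word picked from the cluster promoters, GGCTTCCGGG, was counted on the strand of the gene alone. It was in 20 of 29, in 1 of 187 and in 0.468%. Its reverse complement holds CCGGAAG, the ETS word without its last letter, so the 0 applies to the full ETS word. Other words were searched on both strands. The YY1 word AANATGGC was in 6.90% of the cluster promoters, 15.5% of the others and 7.92% of all, and the ATF4 word TGATGNAA in 3.45%, 1.60% and 2.53%. The NRF1 core GCGCATGC (4.81% of the others and 4.25% of all) and the AP-1 word TGANTCA (7.49% and 5.74%) were in 0 of the 29. GAANNTTC, a pair of heat shock units, was in 17.2%, 8.02% and 5.57%, and TATAAA was in 10.3%, 0.535% and 9.64%. A match of letters is not a binding site.

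Genes that carry the word moved in either direction. Over all genes tested 17.8% were lower and 14.7% higher. Of the 26 cluster genes with TCCAATCAGG 12 were lower (46.2%) and 1 higher, with a median log2 fold change of -0.25. The 3 cluster genes with a matched promoter but without the word had 0 lower and 0 higher, at a median level of 1.02 CPM. Of the 17 members elsewhere with the same word 0 were lower and 4 higher (23.5%), with a median of 0.23. Among 165 tested members elsewhere without it 7 were lower and 47 higher (28.5%), with a median of 0.15. Of 29 tested protein-coding genes outside the set with that word 7 were lower and 3 higher, with a median of -0.04. With both words, 10 of 23 cluster genes were lower and 1 higher (median -0.15), 0 of 6 members elsewhere were lower and 1 higher (median 0.06), and 3 of 9 tested genes outside the set were lower and 1 higher (median -0.16). These 9 are all ZNF genes of other chromosomes. On chromosome 7, ZNF680 averaged 14.96 CPM after mitocurcumin and 24.3 CPM in controls (log2 fold change -0.70, adjusted p = 6.9e-05). ZNF107, on the same chromosome, averaged 44.1 CPM after mitocurcumin and 64.0 CPM in controls (-0.54, adjusted p = 1.1e-04). ZNF92, also there, averaged 21.0 CPM after mitocurcumin and 28.4 CPM in controls (-0.43, adjusted p = 0.0040). ZNF195 on chromosome 11 was higher (0.23, adjusted p = 0.044), and the other 5 did not pass.

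Away from the centromere the picture was of many small rises. ZNF419 (chr19:57487750-57496098), known for encoding a minor histocompatibility antigen, had 32.3, 27.6 and 31.4 CPM in the mitocurcumin libraries, against 12.5, 12.7 and 13.8 CPM in the control libraries. Every mitocurcumin library lies above every control library, and the log2 fold change was 1.23 ± 0.10 (adjusted p = 1.1e-07). Of its transcript words 27.6% also occur in other genes. ZNF558, whose protein represses the mitophagy gene SPATA18 in human neural progenitors, had 60.9, 59.4 and 55.01 CPM in the mitocurcumin libraries, against 34.8, 34.6 and 32.3 CPM in the control libraries. Its log2 fold change was 0.78 ± 0.08 (adjusted p = 6.3e-07), and the groups are far apart. ZNF568, whose mouse counterpart represses a placental promoter of Igf2, had 18.4, 17.6 and 18.5 CPM in the mitocurcumin libraries, against 8.86, 11.5 and 10.8 CPM in the control libraries, a log2 fold change of 0.80 ± 0.12 (adjusted p = 6.1e-05).

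Other large rises were in genes of low level. ZNF582, a gene often methylated in cervical neoplasia, was at 2.14, 2.60 and 1.87 CPM after mitocurcumin and 1.36, 0.851 and 1.15 CPM in controls. Its log2 fold change was 0.97 ± 0.28 (adjusted p = 0.014), and the call was lost without control replicate 2 (adjusted p = 0.054) or mitocurcumin replicate 2 (adjusted p = 0.069), over a range of 0.0060 to 0.069. ZNF610 was at 4.20, 4.13 and 5.33 CPM after mitocurcumin and 2.37, 3.17 and 2.35 CPM in controls, a log2 fold change of 0.79 ± 0.20 (adjusted p = 0.0063), and was lost without mitocurcumin replicate 3 (adjusted p = 0.052, range 0.0022 to 0.052). ZNF460 was at 11.1, 12.1 and 9.56 CPM after mitocurcumin and 6.48, 7.27 and 6.23 CPM in controls, a log2 fold change of 0.71 ± 0.14 (adjusted p = 8.4e-04). The neighbours ZNF580 and ZNF581 both rose. ZNF580, studied in endothelial cells, was at 6.99, 9.85 and 9.53 CPM after mitocurcumin and 5.59, 4.37 and 5.03 CPM in controls, with a log2 fold change of 0.82 ± 0.17 (adjusted p = 0.0012). ZNF581 was at 4.93, 4.39 and 4.81 CPM after mitocurcumin and 4.20, 2.17 and 2.60 CPM in controls, with 0.66 ± 0.23 (adjusted p = 0.033), and was lost when any library other than control replicate 1 was left out, with adjusted p from 4.0e-04 to 0.127 over all alternatives.

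**Figure D4:**
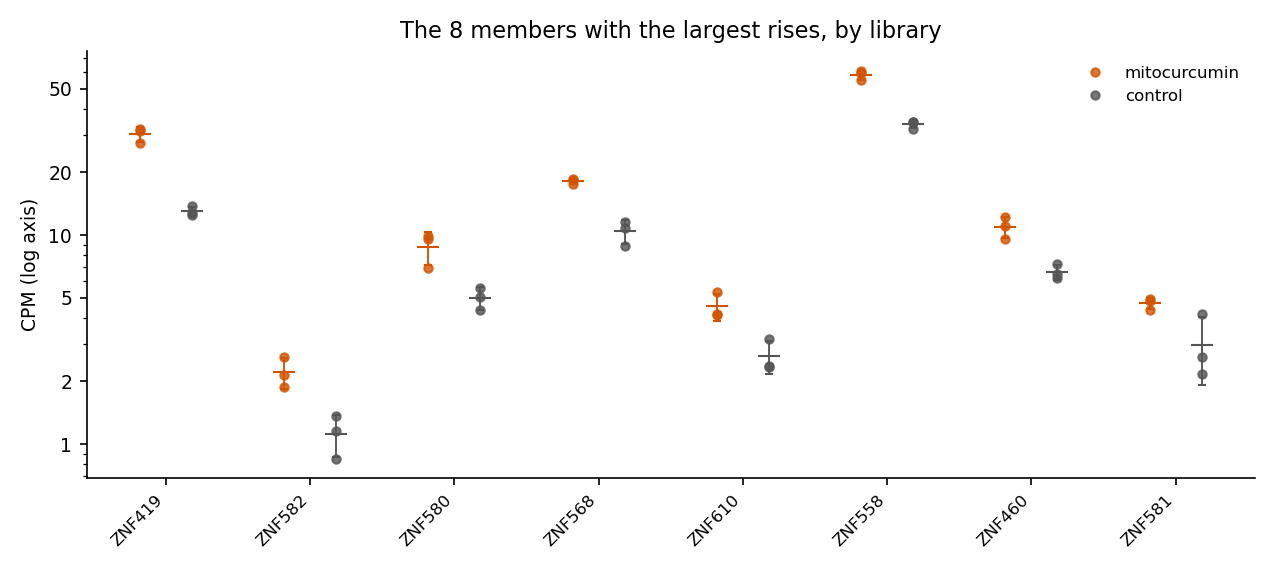
CPM (log axis) in each library for the 8 genes with the largest rises, with mean and SD of 3 libraries per group. Mitocurcumin points lie above control points in each gene, from ZNF582 at the low end to ZNF558 at the high end.

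In the long-arm clusters the rises were spread over many members. The most distal cluster, ZNF628 to ZNF446 (55.5 to 58.5 Mb), had 16 of 58 tested genes higher and 0 lower, with a median log2 fold change of 0.17. The cluster from ZNF175 to ZNF331 (51.6 to 53.6 Mb) had 10 of 39 higher and 4 lower. There ZNF841 was at 115, 112 and 105 CPM after mitocurcumin and 64.4, 73.2 and 75.3 CPM in controls, a log2 fold change of 0.64 ± 0.07 (adjusted p = 1.9e-06). The cluster from ZNF575 to ZNF296 (43.5 to 45.1 Mb) had 5 of 23 higher and 0 lower, led by ZNF222 at 11.3 ± 0.558 CPM after mitocurcumin and 7.27 ± 2.01 CPM in controls, a log2 fold change of 0.64 ± 0.17 (adjusted p = 0.0075). From ZNF565 to ZNF573 (36.2 to 37.8 Mb) 7 of 26 were higher and 1, ZNF850, lower. Among the higher genes there, ZNF345 and ZNF829 overlap on opposite strands. The use of strand in counting was not given, so reads from the stretch they share could not be told apart. ZNF345 also overlaps ZNF790 on the opposite strand, and ZNF790 did not pass (log2 fold change 0.02, adjusted p = 0.904). ZNF181, with 21.5% of its words in other genes, was the 1 higher gene between ZNF302 and ZNF792, at 17.6, 20.2 and 19.95 CPM after mitocurcumin and 12.1, 12.5 and 15.4 CPM in controls, a log2 fold change of 0.53 ± 0.12 (adjusted p = 0.0022).

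On the short arm, the ZNF557 to ZNF846 cluster (7.1 to 9.8 Mb) had 6 of 14 higher and 1 lower, and the ZNF653 to ZNF791 cluster (11.5 to 12.6 Mb) had 5 of 25 higher and 1 lower. ZNF57 led the 5 genes at 2.8 to 2.9 Mb, of which 2 were higher and 0 lower, at 9.01 ± 0.935 CPM after mitocurcumin and 6.02 ± 0.406 CPM in controls, a log2 fold change of 0.58 ± 0.14 (adjusted p = 0.0044).

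The 8 lower genes outside the pericentromeric cluster were scattered over 5 clusters or smaller runs, with log2 fold changes of -0.56 to -0.29. ZNF653 was at 3.11, 3.58 and 3.01 CPM after mitocurcumin and 5.00, 4.52 and 4.82 CPM in controls, a log2 fold change of -0.56 ± 0.18 (adjusted p = 0.022), and was lost when control replicate 3, mitocurcumin replicate 1 or mitocurcumin replicate 3 was left out, with adjusted p of 0.020 to 0.090 over all alternatives. ZNF114 was at 9.66, 7.89 and 8.42 CPM after mitocurcumin and 10.4, 13.96 and 13.6 CPM in controls, a log2 fold change of -0.55 ± 0.14 (adjusted p = 0.0060). ZNF121, one of the 5 most abundant members by CPM, was at 91.3, 88.4 and 94.05 CPM after mitocurcumin and 116, 112 and 112 CPM in controls, a log2 fold change of -0.31 ± 0.06 (adjusted p = 3.6e-04). The other 5 were ZNF578, ZNF175, ZNF347, ZNF611 and ZNF850, and in ZNF578 the groups overlap.

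Of the 5 members with the highest CPM, ZNF841 and ZNF791 were higher, ZNF121 lower, and ZNF146 and ZNF562 did not pass. ZNF146, a protein made almost wholly of fingers and with no KRAB domain, had 264, 250.3 and 271 CPM in the mitocurcumin libraries, against 224, 251 and 251 CPM in the control libraries, a log2 fold change of 0.11 ± 0.06 (adjusted p = 0.157). ZNF562 was at 121, 123 and 117 CPM after mitocurcumin and 107, 118 and 108 CPM in controls, a log2 fold change of 0.12 ± 0.06 (adjusted p = 0.136). ZNF791 was at 93.2, 84.3 and 89.3 CPM after mitocurcumin and 71.1, 74.4 and 78.8 CPM in controls and did pass, with 0.25 ± 0.06 (adjusted p = 0.0060). Per kilobase of transcript, the highest mean levels were 66.6 CPM for ZNF146, 54.7 for ZNF562, 36.3 for ZNF66, 34.6 for ZNF302 and 28.4 for ZNF544.

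Several members with known functions were described whatever their result. ZNF473, also called ZFP100, a component of the machinery that processes histone pre-mRNA, was at 42.9, 41.9 and 38.9 CPM after mitocurcumin and 34.2, 30.3 and 35.3 CPM in controls. It was higher, with 0.31 ± 0.08 (adjusted p = 0.0095), and was lost without control replicate 2 (adjusted p = 0.052, range 0.0021 to 0.052). ZNF274, which brings SETDB1 to the 3′ ends of zinc finger genes, was at 51.6 ± 3.10 CPM after mitocurcumin and 47.3 ± 3.94 CPM in controls and did not pass, with 0.13 ± 0.08 (adjusted p = 0.255), although it did without control replicate 1 (adjusted p = 0.048, range 0.048 to 0.529). ZNF224, a repressor of the aldolase A gene, was at 34.4 ± 1.12 CPM after mitocurcumin and 28.8 ± 3.78 CPM in controls, with 0.25 ± 0.10 (adjusted p = 0.058), and lay near the threshold, passing in 9 of the 17 alternatives. The imprinted gene ZNF331 was at 42.9 ± 1.82 CPM after mitocurcumin and 49.1 ± 1.99 CPM in controls, with -0.20 ± 0.07 (adjusted p = 0.052), and passed in 4 of the 17. Of the rest, ZNF350 (ZBRK1, a partner of BRCA1) had a log2 fold change of 0.13, ZNF382 0.27 and ZNF649 0.09. ZNF417 and ZNF587, near-copies that bind endogenous retroviruses of the HERV-K group, had 0.06 and -0.10. None of these 5 passed.

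Genes of similar level give the background for these shares. The tested protein-coding genes were split into 5 equal bins by mean CPM, and 209 of the 237 members lay in the middle 3 bins, from 3.42 to 92.6 CPM. From 3.42 to 14.98 CPM 26.4% of 91 members were higher and 5.49% lower, against 10.9% and 17.0% of the other protein-coding genes. From 14.98 to 38.5 CPM 23.9% of 88 members were higher and 11.4% lower, against 15.6% and 23.2%. Between 38.5 and 92.6 CPM it was 30% of 30 members higher and 16.7% lower, against 20.4% and 26.5%. In the lowest bin 4% of 25 members were higher and 0 lower, against 6.83% and 4.91% of the other genes. In the highest bin 0 of 3 members were higher and 1 lower, against 23.8% and 30.1%. Weighted to the members' bins, 13.6% of the other protein-coding genes were higher and 19.4% lower.

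**Figure D5:**
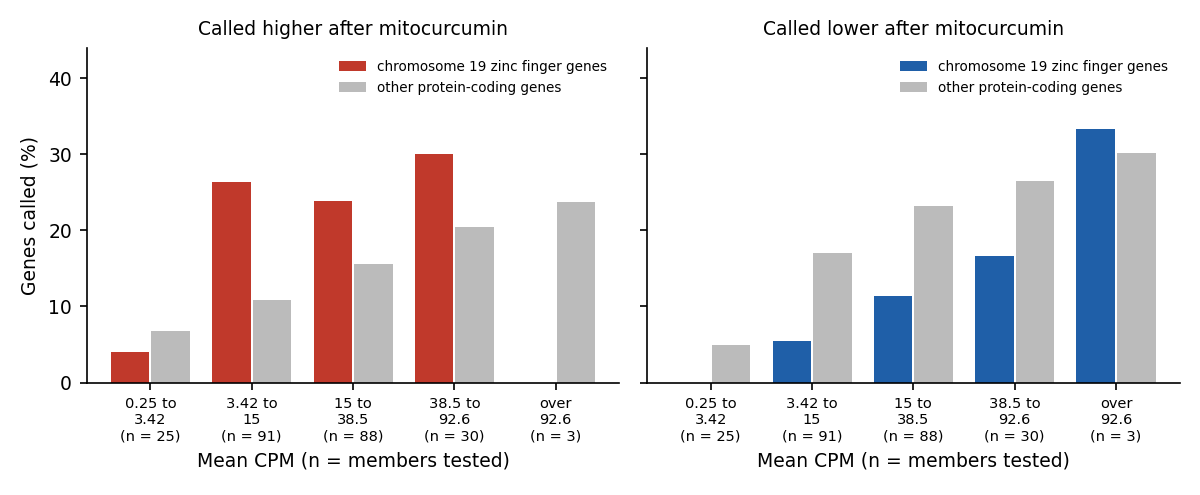
Percent of genes called higher and lower (vertical axes) in 5 bins of mean CPM (horizontal axis), for the chromosome 19 zinc finger genes and the other protein-coding genes. In the middle 3 bins the members have more higher and fewer lower calls than the other genes, and the top bin holds 3 members.

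Zinc finger genes elsewhere in the genome and the other genes of chromosome 19 were set beside these. Of 239 tested ZNF genes on other chromosomes, chosen by the same rule for symbol and type, 69 were higher (28.9%) and 31 lower (13.0%), with a median log2 fold change of 0.13. Leaving out mitocurcumin replicate 1 or 2 brought the count lower to 19. Of 769 other protein-coding genes tested on chromosome 19, 80 were higher (10.4%) and 127 lower (16.5%), with a median of -0.02. The count higher was 136 without control replicate 1 and 53 without mitocurcumin replicate 3. No test of these differences was made.

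Genes linked to KRAB repression were also followed, in a broad list of 38, here called the corepressor list. Beside TRIM28 and SETDB1 it held general chromatin genes such as UHRF1, DNMT1, HELLS, EHMT2 and SUV39H2. It also held the DNA-binding factors CTCF, YY1 and ZKSCAN1, so its counts do not describe direct partners of the KRAB domain alone. Of the 38 genes 37 were tested, of which 21 were lower and 2 higher, with a median log2 fold change of -0.20. Their median level was 139 CPM, and above 92.6 CPM 30.1% of the protein-coding genes outside the zinc finger set were lower and 23.8% higher. TRIM28, the direct partner of the KRAB domain, had 126, 119 and 120.4 CPM in the mitocurcumin libraries, against 198, 151 and 159 CPM in the control libraries. The groups are separate, with control replicate 1 the highest, and the log2 fold change was -0.48 ± 0.08 (adjusted p = 3.5e-04). SETDB1, the methyltransferase that TRIM28 recruits, was at 43.5 ± 1.47 CPM after mitocurcumin and 39.9 ± 1.48 CPM in controls and did not pass, with a log2 fold change of 0.12 ± 0.08 (adjusted p = 0.230). UHRF1, which guides maintenance DNA methylation, had 74.4, 76.3 and 79.2 CPM in the mitocurcumin libraries, against 231, 195 and 189 CPM in the control libraries, a log2 fold change of -1.42 ± 0.07 (adjusted p = 3.1e-10). CBX5, the heterochromatin protein HP1 alpha, had 121, 114 and 105 CPM in the mitocurcumin libraries, against 200.3, 199.7 and 199.6 CPM in the control libraries, a log2 fold change of -0.82 ± 0.06 (adjusted p = 2.0e-08). SETDB2, a relative of SETDB1, was higher, at 13.6, 12.6 and 13.3 CPM after mitocurcumin and 8.86, 8.51 and 8.92 CPM in controls, a log2 fold change of 0.59 ± 0.12 (adjusted p = 9.2e-04).

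The proteins themselves were compared by features that the rule did not use. Translated from GENCODE transcripts, the 246 genes had a median of 12 C2H2 finger matches, from 0 to 36, and 166 matched a KRAB pattern, 33 of them among the 37 in the pericentromeric cluster. The pattern is strict, and a gene without a match may still carry a KRAB domain. In the cluster from ZNF575 to ZNF296 only 2 of 24 genes matched. The counts below therefore compare genes with and without a match, not with and without the domain. Of 160 tested genes with a KRAB match 38 were higher (23.8%) and 13 lower (8.13%). Of 77 without 17 were higher (22.1%) and 8 lower (10.4%). Both lie near the shares of all 237 tested members, 23.2% and 8.86%, beside 14.7% and 17.8% of all genes tested. Outside the pericentromeric cluster 37 of 131 with a match were higher (28.2%) and 3 lower (2.29%), against 17 of 73 higher (23.3%) and 5 lower (6.85%) without. The median number of fingers was 11 in the higher genes, 13 in the lower and 12 in those not called.

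Sequence shared with other annotated genes limits what can be said of single genes. The median share of 50-base transcript words found in another gene was 2.56%, and 28 members had more than 20%. Of the called genes 9 were above that share, 8 higher and ZNF724 lower, with the greatest shares in ZNF177 at 97.4% and ZNF564 at 84.7%. The share counts any other annotated gene, also one that overlaps the member itself. ZNF177 overlaps the row ZNF559-ZNF177 on the same strand (6.24 CPM), so its share need not come from a similar paralog. The median share was 1.15% in the higher genes, 4.10% in the lower and 1.86% in those not called. Fractional counts were the rule, since 9.50% of the members' values were whole numbers (within 1e-06), beside 11.6% of the values of all tested genes, and 194 members had none.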

How the data were processed

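RNA sequencing of 6 MDA-MB-231 libraries was analysed, 3 given mitocurcumin at 5 µM and 3 given DMSO, each for 9 hours. Stranded libraries were built from poly(A) RNA, per the labels' protocols. Per the submitters' processing notes the genome build was GRCh38. RefSeq gene models are named in the file headers. Aligner, counter and use of strand are not given in the sources used here. Raw values as deposited are estimated counts with fractions, judged from the values themselves. The deposited normalized values were log2 of the raw value over 1 factor per library, with values under that factor listed as 0, as checked against the raw values. They were used in 1 alternative.

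Rounded counts entered the quasi-likelihood F-test of edgeR 4.0.16 (R 4.3.3; robust dispersion, TMM scaling, filterByExpr with a minimum count of 10 and total of 15, group as the only term). P-values were two-sided and adjusted by the Benjamini-Hochberg method over all 16481 genes tested. Called means an adjusted p under 0.05. CPM used the rounded counts and TMM-scaled totals. Replicates of a group differed beyond Poisson sampling (5.36 to 19.2 chi-square units per gene) and none was treated as a duplicate. In a simulation of this comparison with 16267 genes the test recovered 62% of 100 genes changed 1.5-fold and 83% of 100 changed 2-fold, and 10 of its 155 calls were false. No other genes were changed in it, whereas 32.5% of the genes tested were called in the data. Its rates thus need not hold for the real comparison.

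Named genes were the 8 largest rises and 8 largest falls among called members above a mean of 1 CPM with separate groups. The 5 with the highest CPM, the largest change in each cluster and 14 members fixed by function were also named. So were TRIM28, SETDB1 and the 2 largest changes of the corepressor list. Others were named after their values were seen. Results on the corepressor list are given in part. The members and lists were chosen with earlier results of these data known. Fingers (C2H2 pattern) and KRAB matches came from the longest reading frame of GENCODE 29 transcripts, in place of RefSeq proteins, which were not used here. Promoter words were counted in RefSeq promoters (GRCh38.p14). The alternatives used DESeq2 1.42.0 and limma 3.58.1, other scalings and filters, a replicate term, a stricter threshold, protein-coding genes alone, unrounded values and each library left out in turn.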

Additional observations from a re-analysis of the deposited data

How the results depend on the processing

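Across other scalings, filters and tools (RLE and upper-quartile factors, no filter, at least 1 CPM in 3 libraries, DESeq2, limma voom, limma on the deposited log2 values, protein-coding genes alone, unrounded values) and the replicate term, 55 to 60 zinc finger genes of chromosome 19 were higher and 21 to 24 lower, 13 pericentromeric genes were lower in each, and 0 named genes reversed. As each library was left out, 39 to 56 members were higher and 16 to 27 lower, with a median log2 fold change of 0.08 to 0.15. The pericentromeric cluster then had 11 to 16 genes lower and 0 to 1 higher, with a median of -0.23 to -0.10, and the other members had 38 to 55 higher and 4 to 11 lower. For ZNF genes of other chromosomes 56 to 75 were higher and 19 to 35 lower. Among other protein-coding genes of chromosome 19 it was 53 to 136 higher and 95 to 138 lower. In the corepressor list 2 to 3 were higher and 18 to 22 lower. Of the calls, 30 of the 55 higher and 15 of the 21 lower held in each of 16 alternatives, among them 11 of the 13 pericentromeric ones. At an adjusted p under 0.01, by construction stricter, 34 members were higher, 34 of them outside the pericentromeric cluster, where 4 were lower, and 0 were higher inside it. At that threshold 18 ZNF genes of other chromosomes were lower and 48 other protein-coding genes of chromosome 19 higher. Among the 15 tested members with at least 50% whole values 0 were higher and 1 lower, with a median log2 fold change of 0.033. Splitting at 2 Mb gave 6 clusters and at 0.5 Mb 10, in place of 9. The position counts under these alternatives were chosen after seeing the data. With a replicate block 57 members were higher and 24 lower. The numbers were not taken to pair the samples, since same-numbered libraries deviated from their group means with correlations of 0.101, 0.017 and -0.0101, and not every library correlated best with its own number. Depth limits the 9 untested members, and sequence shared with other annotated genes limits the values of single genes.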
